A study of Mus musculus with 40 samples.

Results

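Iron and calcium absorption genes were followed across the duodenum and the ileum of mice after small bowel resection (SBR). The set was given as a list of 10 genes, of which 6 serve iron (Slc40a1, Cybrd1, Slc11a2, Heph, Tfrc and Fth1) and the others calcium (S100g, Trpv6, Atp2b1 and Vdr). The rule used no measured value, although the set was drawn up with earlier results of these data known. Of the 10 genes, 9 were matched to the 15958 genes of the expression table, and Trpv6, the apical calcium channel, was not analysed here. Tfrc and Fth1 were also read in the liver, which formed a separate batch.

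Dietary iron is taken up mainly in the duodenum. The reductase Dcytb, encoded by Cybrd1, reduces ferric iron at the brush border, the transporter DMT1, encoded by Slc11a2, carries ferrous iron into the enterocyte, ferritin, whose heavy chain is encoded by Fth1, stores it, and ferroportin, encoded by Slc40a1, exports it to the blood together with the ferroxidase hephaestin, encoded by Heph. The transferrin receptor, encoded by Tfrc, imports iron from the blood side and is known for high expression in dividing cells. Calcium that crosses enterocytes enters through TRPV6, is carried by the cytosolic protein calbindin-D9k, encoded by S100g, and leaves through the plasma membrane calcium pump PMCA1, encoded by Atp2b1, a route under the control of the vitamin D receptor, encoded by Vdr.

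Wild-type male C57BL/6 mice were operated on at 8 weeks of age, by SBR or by a sham operation in which the bowel was cut and rejoined. From 3 weeks after surgery they were gavaged daily for 7 weeks with vehicle or with 30 mg/kg of WUSTL0717, a gut-restricted agonist of the liver X receptor (LXR, a nuclear receptor for oxysterols) made as an amide analog of GW3965. The groups were sham vehicle (n = 3), SBR vehicle (n = 4) and SBR WUSTL0717 (n = 4) in the duodenum and again in the ileum beyond the anastomosis, and 5, 8 and 5 mice in the liver. Sample labels give a resection of 50 to 60% of the small bowel, whereas the study's methods state a larger extent, all operated mice were kept on a liquid diet, and no sham mice received WUSTL0717, so that the drug was compared only after resection.

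Values are log2 TPM (transcript abundance scaled for gene length and library total, on a log2 scale), batch-corrected by the authors, and read counts were not part of the table, so the depth per library is unknown. The correction shifts and can rescale each gene separately, so a level was compared only with the same gene in other intestinal, or other liver, libraries, and the size of a difference may be rescaled by gene, which limits any ranking of differences between genes. Back on the linear scale, with an assumed pseudocount and negative results clipped, duodenal and ileal libraries summed to between 618212 and 863110. These sums of batch-corrected values are not TPM totals. They were 618212 to 634890 in SBR vehicle and 660143 to 807720 in SBR WUSTL0717 ilea. The region labels were borne out by markers: the mean of 3 ileal markers lay between 4.38 and 6.32 in ileal libraries and between -0.24 and 0.52 in duodenal ones, and the mean of 5 duodenal markers lay between 6.33 and 6.78 in duodenal and between 2.10 and 3.67 in ileal libraries. Whole tissue was sequenced, in which fewer cells of a type and less RNA per cell cannot be told apart. The exocrine pancreas list, which the ileum held at -0.97 to -0.87, ranged from 1.75 to 7.68 among the duodenal libraries, and its part in the duodenal values was not tested.

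Ferroportin, ferritin and transferrin receptor messages carry iron-responsive elements, hairpins in the untranslated regions that bind the iron regulatory proteins, and the sequences are shown for the 3 members in which the search below found a match. An isoform of the Slc11a2 message is also known to carry such an element, which the search used here did not match. By background knowledge an element in the 5′ UTR restrains translation when iron is low, and elements in the 3′ UTR protect the message from decay. A search of the GENCODE M21 transcripts (GRCm38) for an unpaired C, 5 stem pairs and the loop CAGTG or CAGAG followed by a base other than G found a match in 3 of the 10 genes, and in 1.31% of 55341 genes. It lay in 3 of 8 Slc40a1, 2 of 7 Tfrc and 5 of 9 Fth1 transcripts, which values per gene do not separate. The capitals mark the 6 loop bases. The Slc40a1 element lies in the 5′ UTR at chr1:45925466-45925492 on the minus strand, the Fth1 element in the 5′ UTR at chr19:9982733-9982759 on the plus strand, and the 5 Tfrc elements in the 3′ UTR at chr16:32631161-32631737 on the plus strand, in the order of the transcript.
Slc40a1 5′ UTR: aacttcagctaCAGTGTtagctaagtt
Fth1 5′ UTR: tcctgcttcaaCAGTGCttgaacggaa
Tfrc 3′ UTR element 1: tttatcagtgaCAGAGTtcactataaa
Tfrc 3′ UTR element 2: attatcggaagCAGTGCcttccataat
Tfrc 3′ UTR element 3: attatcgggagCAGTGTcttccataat
Tfrc 3′ UTR element 4: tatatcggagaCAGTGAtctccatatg
Tfrc 3′ UTR element 5: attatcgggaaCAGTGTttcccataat

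The genes of the iron reductase, importer, storage protein and exporter (Cybrd1, Slc11a2, Fth1 and Slc40a1) were higher in the duodenum than in the ileum in every group. Slc40a1 (chr1:45908068-45926523, minus strand) stood in the duodenum at 6.23, 6.59 and 6.40 in sham vehicle, at 6.52, 6.29, 6.73 and 6.71 in SBR vehicle and at 6.24, 6.51, 6.27 and 6.40 in SBR WUSTL0717 libraries. In the ileum it stood at 1.76, 1.92 and 2.33, at 3.44, 3.65, 3.19 and 3.65, and at 3.12, 3.93, 2.67 and 2.17 in the same order of groups. Every duodenal library lay above every ileal library, and among the ileal groups the sham libraries were the low ones except for 1 drug library at 2.17. The difference between the regions was 4.41 ± 0.36 log2 units (SE) in sham mice, 3.08 ± 0.31 in SBR vehicle and 3.38 ± 0.31 in SBR WUSTL0717 mice. The largest of the 3 adjusted p-values for Slc40a1 was 1.84e-07 in limma.

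Cybrd1 (chr2:71117923-71142926, plus strand) read 3.95, 4.01 and 3.70 in the sham duodenum, 4.02, 3.17, 3.28 and 2.88 after SBR with vehicle, and 2.87, 2.86, 2.75 and 2.32 after SBR with WUSTL0717. In the ileum it read 0.48, 0.54 and 0.35, then 0.59, 0.89, 0.59 and 0.91, then 0.15, 0.42, -0.04 and 0.15. The regional difference was 3.43 ± 0.27 log2 units in sham, 2.59 ± 0.24 in SBR vehicle and 2.53 ± 0.24 in SBR WUSTL0717 mice, with limma adjusted p of at most 4.86e-08. Its ileal mean lay under the filter of a mean log2 TPM of 1, so that Cybrd1 entered the fits within the ileum only when no filter was set, and it entered the joint fit of both regions through its duodenal level. The same holds for S100g, and the regional p-values of both are given as a description.

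Slc11a2 (chr15:100387898-100425072, minus strand) and Fth1 (chr19:9980598-9985098, plus strand) had the same order of regions. Slc11a2 lay between 5.66 and 6.86 in the 11 duodenal and between 3.17 and 3.88 in the 11 ileal libraries, a difference of 2.59 ± 0.34 in sham, 2.80 ± 0.29 in SBR vehicle and 2.53 ± 0.29 in SBR WUSTL0717 mice. Fth1 lay between 10.59 and 11.86 in the duodenum and between 7.49 and 8.24 in the ileum, a difference of 3.31 ± 0.36, 3.13 ± 0.31 and 3.71 ± 0.31 log2 units. Neither gene's regions overlapped in any group. Fth1 has processed pseudogenes, and reads shared with them would have been dropped by the counting of unique reads, so its level is less certain than its differences.

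S100g (chrX:162961992-162964599, minus strand), the calbindin-D9k gene, showed the largest regional difference of the 9 genes in all 3 groups. Its ileal mean lay under the filter, and batch correction can rescale each gene, which limits this rank. It read 6.59, 6.70 and 6.02 in the sham duodenum, 6.84, 7.70, 4.99 and 7.49 in SBR vehicle and 7.45, 7.71, 8.18 and 7.51 in SBR WUSTL0717. In the ileum it read -0.10, -0.33 and 0.30, then 0.56, 2.11, 1.37 and 1.44, then 0.16, 1.69, 0.66 and 0.70. No duodenal library came near the ileal ones, although 1 SBR vehicle duodenum stood at 4.99. The regional difference was 6.48 ± 0.55 log2 units in sham, 5.39 ± 0.47 in SBR vehicle and 6.91 ± 0.47 in SBR WUSTL0717 mice, with limma adjusted p of at most 2.41e-08. Atp2b1 (chr10:98914406-99026143, plus strand), the calcium pump gene, differed by 2.31 ± 0.37 in sham, 1.08 ± 0.32 in SBR vehicle and 1.35 ± 0.32 in SBR WUSTL0717 mice, with limma adjusted p of 0.000173, 0.00759 and 0.00169.

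**Figure D1:**
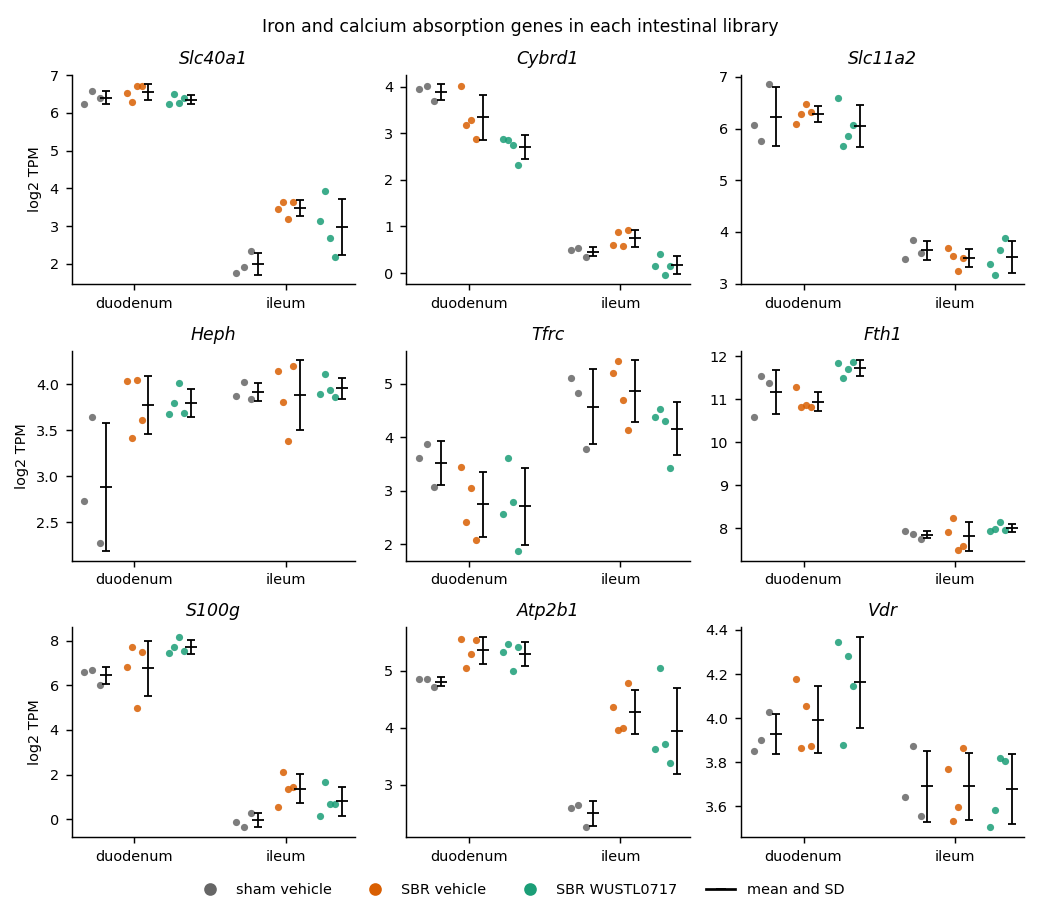
Log2 TPM of the 9 genes in each duodenal and ileal library, 1 point per library, colored by group, with the mean and SD beside the points; each panel has its own vertical axis. Slc40a1, Cybrd1, Slc11a2, Fth1 and S100g form 2 separate bands by region, and the ileal sham points of Slc40a1 (1.76 to 2.33) and Atp2b1 (2.25 to 2.65) sit under the ileal SBR vehicle points.

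Promoter windows, from 250 bases before to 50 after the start of transcription, were available from RefSeq (GRCm38.p6) for 7 of the 10 genes. Those of S100g and Cybrd1 are shown as a calcium and an iron gene that were higher in the duodenum in every group. That of Atp2b1, the first of its 2 windows, is shown for its ileal difference after SBR, described further on. That difference was not called in limma with neither centring nor library weights. The windows are chrX:162964550-162964849 on the minus strand, chr2:71117804-71118103 on the plus strand and chr10:98914392-98914691 on the plus strand. Both strands were searched for the hypoxia response core, ACGTG or GCGTG, and for the TATA box, TATAAA, and matches are in capitals. The Cybrd1 window held 1 GCGTG, the Atp2b1 window ACGTG on both strands, which overlap in 1 palindrome, and the S100g window 1 TATAAA and no hypoxia core. Of 32851 mouse windows of the same length, 43.8% held a hypoxia core and 13.6% a TATAAA, so that these matches are a description and not evidence of binding.
S100g: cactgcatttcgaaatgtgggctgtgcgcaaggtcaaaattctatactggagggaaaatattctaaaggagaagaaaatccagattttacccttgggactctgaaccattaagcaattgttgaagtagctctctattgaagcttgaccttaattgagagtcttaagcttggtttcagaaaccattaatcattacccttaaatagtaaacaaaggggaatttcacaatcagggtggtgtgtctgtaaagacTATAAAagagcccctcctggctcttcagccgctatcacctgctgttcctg
Cybrd1: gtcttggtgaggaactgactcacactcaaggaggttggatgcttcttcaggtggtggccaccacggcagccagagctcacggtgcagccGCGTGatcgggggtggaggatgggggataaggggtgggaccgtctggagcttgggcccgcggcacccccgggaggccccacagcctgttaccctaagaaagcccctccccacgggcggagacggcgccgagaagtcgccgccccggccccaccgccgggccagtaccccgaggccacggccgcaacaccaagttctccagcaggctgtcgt
Atp2b1: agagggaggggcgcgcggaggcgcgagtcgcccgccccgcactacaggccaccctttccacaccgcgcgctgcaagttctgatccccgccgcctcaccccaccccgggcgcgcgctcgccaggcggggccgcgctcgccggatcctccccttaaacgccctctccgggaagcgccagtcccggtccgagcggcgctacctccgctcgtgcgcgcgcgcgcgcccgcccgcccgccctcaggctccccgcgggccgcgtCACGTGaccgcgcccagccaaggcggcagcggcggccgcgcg

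Tfrc, Heph and Vdr were not called higher in the duodenum in limma with neither centring nor library weights. Tfrc (chr16:32608920-32632794, plus strand) was at 3.60, 3.87 and 3.06 in the sham duodenum, 3.43, 2.42, 3.05 and 2.08 in SBR vehicle and 2.55, 3.61, 2.78 and 1.87 in SBR WUSTL0717. In the ileum it was at 5.11, 4.83 and 3.77, then 5.20, 5.42, 4.69 and 4.13, then 4.38, 4.52, 4.30 and 3.42. Only 1 drug ileum and 1 sham ileum reached down to the duodenal values. Duodenum minus ileum came to -1.06 ± 0.48 log2 units in sham, -2.12 ± 0.42 in SBR vehicle and -1.45 ± 0.42 in SBR WUSTL0717 mice, with limma adjusted p of 0.138, 0.000355 and 0.00633. After each library was centred on its median, the difference in SBR WUSTL0717 mice was -0.57 with adjusted p = 0.315, whereas that in SBR vehicle mice kept its call at -1.18 with adjusted p = 0.0317. Lists of crypt and cycling genes moved with Tfrc, with a mean of 6 genes between 0.95 and 2.38 in duodenal and between 2.75 and 3.41 in ileal libraries, and their part in the Tfrc difference was not tested.

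Heph (chrX:96455359-96574485, plus strand) was at 2.73, 3.64 and 2.28 in the sham duodenum, and between 3.38 and 4.20 in the ileal libraries and between 3.41 and 4.05 in the other duodenal ones. Its regional difference in sham mice, -1.03 ± 0.33, had a limma adjusted p of 0.0396. This call was lost when any of 5 of the 6 sham libraries was left out (adjusted p from 0.0776 to 0.159), with library weights (-0.70, adjusted p = 0.0526), in the unmoderated two-sample test (adjusted p = 0.201) and after median centring (adjusted p = 0.270). Under that centring Heph was higher in the duodenum of SBR vehicle mice (0.83, adjusted p = 0.0256) and SBR WUSTL0717 mice (0.73, adjusted p = 0.0499). Vdr (chr15:97854425-97910630, minus strand) lay at 3.85 to 4.35 in the duodenum and 3.51 to 3.87 in the ileum, with regional differences of 0.24 ± 0.26, 0.30 ± 0.22 and 0.48 ± 0.22 and no call in limma, although the regions did not overlap in either resected group. In SBR WUSTL0717 mice Vdr was called with library weights (0.45, adjusted p = 0.0357) and in the unmoderated two-sample test (0.48, adjusted p = 0.0282). Median centring raised the difference of Vdr in the resected groups to 1.23 and 1.37, with adjusted p of 0.000157 and 4.67e-05.

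In counts, 7 of 9 genes were called between the regions in each group, 6 of them higher in the duodenum (Slc40a1, Cybrd1, Slc11a2, Fth1, S100g and Atp2b1) and 1 lower, which was Heph in sham mice and Tfrc in both resected groups. S100g and Cybrd1 passed the filter through the duodenum and had to differ, and among the other 7 genes 5 were called in each group. Of all 15923 genes tested between the regions, 14.6% were called in sham, 56.9% in SBR vehicle and 55.9% in SBR WUSTL0717 mice. After median centring the members called numbered 6, 9 and 8 of 9 in the same order, beside 12.7%, 31.1% and 29.7% of all genes, and with library weights 6, 7 and 8, beside 34.8%, 67.6% and 61.6%. Over all genes the median difference was -0.52, -0.98 and -0.95. The regions did not overlap for 7 of 9 genes in sham, 8 in SBR vehicle and 6 in SBR WUSTL0717 mice, S100g and Cybrd1 among them each time, where the shares over all genes were 37.9%, 43.4% and 47.8%. The exact permutation test cannot give a p under 0.10 for 3 libraries against 3, and 8 of 9 genes in SBR vehicle mice reached the smallest value that 4 against 4 allow, 0.0286. S100g and Cybrd1, which had to differ, were among these 8.

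**Figure D2:**
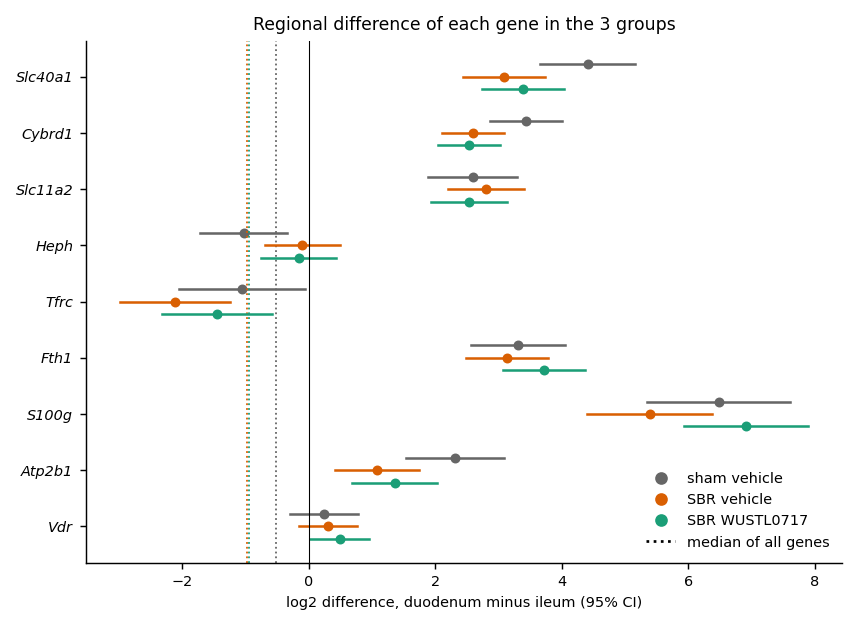
Difference in log2 TPM between duodenum and ileum for each gene in the 3 groups, with 95% confidence intervals from limma; dotted lines give the median of all genes in each group. S100g lies at 5.39 to 6.91, Slc40a1, Cybrd1, Slc11a2 and Fth1 between 2.53 and 4.41, and Tfrc below 0 throughout.

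Whether resection changed these genes was asked by comparing SBR vehicle with sham vehicle mice within each region. In the ileum, the calcium pump gene Atp2b1 and the iron exporter gene Slc40a1 showed the largest differences of the 7 members tested, both higher after SBR and both without a call. Atp2b1 stood at 2.60, 2.65 and 2.25 in sham vehicle, at 4.36, 3.96, 3.99 and 4.79 in SBR vehicle and at 3.63, 5.05, 3.72 and 3.38 in SBR WUSTL0717 ilea. All 8 resected ilea lay above the 3 sham ilea. The difference was 1.77 ± 0.38 log2 units (95% CI, 0.94 to 2.61) for SBR vehicle and 1.45 ± 0.38 (0.61 to 2.28) for SBR WUSTL0717 against sham, with limma adjusted p of 0.0916 and 0.0804 and an exact two-sided permutation p of 0.0286 for each, the smallest that 3 libraries against 4 can give. Under median centring the differences were 1.70 and 1.37 and both were called, with adjusted p of 0.0273 and 0.0310, and with library weights they were 1.76 and 1.13 and also called, where the weights called 1.77% and 4.84% of all genes.

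Slc40a1 in the ileum, whose library values are given above, was higher by 1.48 ± 0.37 log2 units (95% CI, 0.68 to 2.28) in SBR vehicle than in sham mice, with adjusted p = 0.142 in limma and an exact permutation p of 0.0286. It was called when libraries were weighted (1.47, adjusted p = 0.0214), where 1.77% of all genes were called. In SBR WUSTL0717 mice the difference from sham was 0.97 ± 0.37, with adjusted p = 0.240, and 1 of the 4 libraries lay within the sham range. S100g and Cybrd1, under the filter in the ileum, were higher after SBR by 1.41 and 0.29 log2 units, with no overlap with sham and exact permutation p of 0.0571 and 0.0857. Without the filter their limma adjusted p was 0.203 and 0.648. The list means of 3 ileal markers, bile acid carriers among them, were 4.38 to 4.73 in sham and 5.87 to 6.15 in SBR vehicle ilea, and those of 4 goblet cell markers 5.74 to 6.01 and 6.29 to 6.53. In limma 2 of the 3 ileal and 0 of the 4 goblet cell markers were called higher, where 0.349% of all genes were called. The 5 duodenal markers had means of 3.61 to 3.67 in sham and 2.10 to 3.33 in SBR vehicle ilea, with none of the 4 tested higher, 3 under an unadjusted 0.05 and 0 called in limma. The 10 enterocyte markers overlapped, at 7.60 to 8.00 and 6.94 to 7.83. The part of these lists in the ileal differences was not tested.

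Slc11a2, Heph, Tfrc, Fth1 and Vdr differed in the ileum by 0.29 log2 units or less after SBR. Their 95% confidence intervals reached from -0.69 to 0.39 for Slc11a2, from -0.58 to 0.51 for Heph, from -0.61 to 1.19 for Tfrc, from -0.63 to 0.54 for Fth1 and from -0.48 to 0.48 for Vdr. In the ileum after SBR with vehicle, limma called 0 of 7 members, 2 had an unadjusted p under 0.05, and the unmoderated two-sample test called 0, where 0.349% of 15772 genes were called. Among the 7 tested members, 2 had groups that did not overlap, against 9.5% of all genes. Against sham, SBR WUSTL0717 ilea gave 0 of 7 called and 2 under an unadjusted 0.05, where 2.17% of genes were called, and 1 of 7 without overlap, against 13.2%.

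In the duodenum, the median gene differed by -0.36 log2 units between SBR vehicle and sham mice and by -0.32 between SBR WUSTL0717 and sham mice, and members are read against that shift. Heph stood at 2.28 to 3.64 in sham, at 4.03, 3.41, 4.05 and 3.61 in SBR vehicle and at 3.68, 3.80, 4.01 and 3.69 in SBR WUSTL0717 mice, so that 2 of 4 vehicle libraries lay within the sham range and no drug library did. The differences were 0.89 ± 0.38 and 0.91 ± 0.38, with limma adjusted p of 0.293 and 0.265, and without the sham library at 2.28 they were 0.59 and 0.61. Atp2b1 stood at 4.85, 4.86 and 4.71 in sham, at 5.55, 5.04, 5.28 and 5.54 in SBR vehicle and at 5.32, 5.46, 5.00 and 5.41 in SBR WUSTL0717 mice, so that all 8 resected duodena lay above the sham ones, as in the ileum but by less. Its differences were 0.55 ± 0.34 and 0.49 ± 0.34, with adjusted p of 0.410 and 0.459 and an exact permutation p of 0.0571 for each, and relative to the library medians they were 0.95 and 0.85.

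S100g in the duodenum, whose library values are given above, was higher than in sham mice by 1.28 ± 0.60 with WUSTL0717 (limma adjusted p = 0.30, exact permutation p = 0.0286), with no overlap, and by 0.32 ± 0.60 with vehicle (adjusted p = 0.796), with overlap. Without the vehicle duodenum at 4.99, the difference with vehicle was 0.91 (adjusted p = 0.425), and without any other single library it was 0.0053 to 0.45. Cybrd1 had the most negative difference of the 9 members in the duodenum of SBR WUSTL0717 mice. The 3 sham libraries lay at 3.70 to 4.01, 1 SBR vehicle library lay just above them at 4.02 and the other 3 at 2.88 to 3.28, and all 4 SBR WUSTL0717 libraries lay at 2.32 to 2.87. The difference was -0.55 ± 0.35 for SBR vehicle and -1.19 ± 0.35 (95% CI, -1.95 to -0.42) for SBR WUSTL0717 against sham, with limma adjusted p of 0.424 and 0.169. Relative to the library medians these were -0.14 and -0.82. Library weights gave the second a call, at -1.26 with adjusted p = 0.0220, where 7.45% of all genes were called. Tfrc lay lower than sham by values of -0.77 ± 0.47 and -0.81 ± 0.47, with adjusted p of 0.403 and 0.384, in which 3 of 4 libraries of each resected group lay below all sham libraries. Relative to the library medians the Tfrc differences were -0.36 and -0.44, and without the drug duodenum at 1.87 the second was -0.53.

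For the duodenum of SBR vehicle against sham mice, limma called 0 of 9 members, 1 had an unadjusted p under 0.05 and the two-sample test called 0, where 0% of 15093 genes were called. Groups did not overlap for 1 of 9 members (Atp2b1), against 9.65% of genes. For SBR WUSTL0717 against sham mice, limma called 0 of 9, 2 were under an unadjusted 0.05 and the two-sample test called 0, where 0.802% of genes were called, and 4 of 9 (Cybrd1, Heph, S100g and Atp2b1) did not overlap, against 18.4%. The mean of 10 enterocyte markers was 8.07 to 8.79 in the resected duodena and 6.79 to 7.88 in sham, with 0 of 10 called in SBR vehicle (4 under an unadjusted 0.05) and 2 of 10 in SBR WUSTL0717 mice in limma. The mean of 6 crypt and cycling genes was 0.95 to 1.97, against 2.26 to 2.38, with 0 of the 5 tested called in limma in either group and 4 under an unadjusted 0.05 in each. The 6 immune markers were at 2.51 to 3.29 in sham and 1.47 to 2.99 in the resected duodena. List means of 6 hepatocyte markers were 5.82 to 6.45 in sham, 5.37 to 5.75 in SBR vehicle and 5.34 to 6.36 in SBR WUSTL0717 duodena. Limma called 0 of them in either resected group against sham. The part of these lists in the duodenal values of the members was not tested.

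The effect of WUSTL0717 was asked by comparing the drug and vehicle groups after SBR. In the duodenum, Fth1 was the member with a higher value in every drug library. It stood at 11.28, 10.81, 10.85 and 10.83 with vehicle and at 11.85, 11.48, 11.71 and 11.86 with WUSTL0717, and the sham libraries stood at 10.59, 11.53 and 11.39. Of the drug libraries, 3 lay above every sham library. The difference was 0.78 ± 0.35 log2 units (95% CI, 0.02 to 1.54), with limma adjusted p = 0.902 and an exact permutation p of 0.0286, and it lay between 0.74 and 0.90 when any single library was left out. The light chain gene Ftl1 ranged from 8.64 to 9.36 with vehicle and from 8.47 to 11.28 with the drug, which overlap, and differed by 1.17 ± 0.55 with adjusted p = 0.963.

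Cybrd1 was lower in all drug libraries than in all vehicle libraries in both regions, narrowly in the duodenum (highest drug library 2.87, lowest vehicle library 2.88). In the duodenum the difference was -0.64 ± 0.33 (95% CI, -1.35 to 0.07), with limma adjusted p = 0.997 and an exact permutation p of 0.0286, and without the vehicle library at 4.02 it was -0.41. In the ileum it was -0.58, also with an exact permutation p of 0.0286 and, without the filter, an adjusted p of 0.343, at levels of 0.59 to 0.91 against -0.04 to 0.42 where depth limits the reading. S100g in the duodenum was higher by 0.96 ± 0.55 with the drug, with adjusted p = 1 and an exact permutation p of 0.171, and leaving out the vehicle library at 4.99 brought the difference to 0.37. In the ileum S100g differed by -0.57, with an exact permutation p of 0.286. Its values overlapped there, at 0.56 to 2.11 with vehicle and 0.16 to 1.69 with the drug.

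The other members had small differences or overlapping ranges. In the duodenum, Slc40a1, Slc11a2, Heph, Tfrc, Atp2b1 and Vdr differed by between -0.24 and 0.17 log2 units. In the ileum, Slc40a1 differed by -0.51 (95% CI, -1.25 to 0.23), Tfrc by -0.70 (-1.54 to 0.13) and Atp2b1 by -0.33 (-1.10 to 0.44), and Slc11a2, Heph, Fth1 and Vdr by between -0.01 and 0.20. Without the drug ileum at 3.93 for Slc40a1 and 5.05 for Atp2b1, these 2 differed by -0.83 and -0.70. Without the drug ileum at 2.17 for Slc40a1 they differed by -0.24 and -0.14, and Tfrc by -0.46, and without the vehicle ileum at 4.79 for Atp2b1 that gene differed by -0.16. With the drug in the duodenum, limma called 0 of 9 members, 1 was under an unadjusted 0.05 and the two-sample test called 0, where 0.258% of genes were called, and 2 of 9 (Cybrd1 and Fth1) did not overlap, against 3.15%. With the drug in the ileum, limma called 0 of 7, 0 were under an unadjusted 0.05 and the two-sample test called 0, where 0.0697% of genes were called, and 0 of 7 did not overlap, against 3.83%. In the ileum the 6 hepatocyte markers, some of which enterocytes also express, lay at 7.14 to 9.60 with the drug and 6.17 to 7.42 with vehicle. The 10 enterocyte markers lay at 7.93 to 8.50 and 6.94 to 7.83, with 9 of 10 higher, 4 under an unadjusted 0.05 and 0 called. The part of either list in the ileal values was not tested. The exocrine pancreas list had all 7 genes higher in the drug than in the vehicle duodenum with none called, and its part in the Fth1 and S100g values was not tested.

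**Figure D3:**
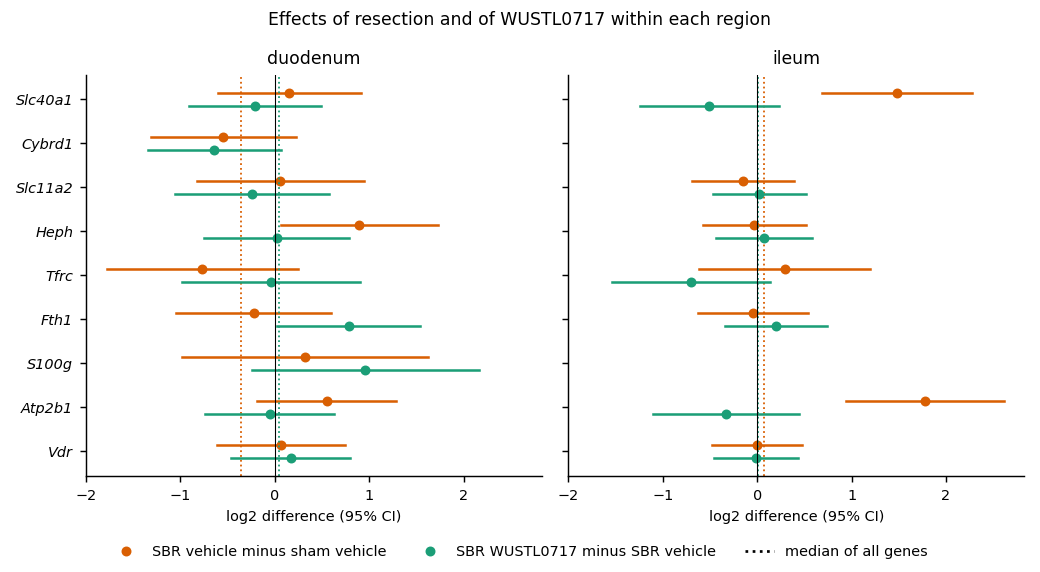
Differences in log2 TPM with 95% confidence intervals from limma for SBR vehicle against sham vehicle and for SBR WUSTL0717 against SBR vehicle, in the duodenum (left) and the ileum (right, without Cybrd1 and S100g, which lay under the filter); dotted lines give the median of all genes. Slc40a1 (1.48) and Atp2b1 (1.77) stand apart after SBR in the ileum, and the only other intervals that do not cross 0 are those of Heph after SBR and Fth1 with the drug in the duodenum.

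Whether the 2 regions responded differently was tested by the interaction in the fit of the 22 intestinal libraries. The effect of SBR in the duodenum minus that in the ileum was -1.33 ± 0.48 log2 units for Slc40a1, -1.23 ± 0.49 for Atp2b1, -0.84 ± 0.36 for Cybrd1 and 0.93 ± 0.44 for Heph, which were the 4 members with an unadjusted p under 0.05. Their limma adjusted p lay between 0.297 and 0.357, so 0 of 9 were called, where 0.0754% of genes were called and the median gene differed by -0.44. With library weights 3 of the 9 were called, Slc40a1 at -1.40, Atp2b1 at -1.26 and Cybrd1 at -1.03, where 12.5% of all genes were called. Cybrd1 and S100g entered this fit through their duodenal levels, with ileal means under the filter. Interactions of these genes are given as a description. With centred libraries the same differences were -0.85 for Slc40a1, -0.75 for Atp2b1 and -0.36 for Cybrd1, with adjusted p of 0.427, 0.471 and 0.676, and that of Heph was 1.41, with adjusted p = 0.144. For the effect of WUSTL0717, limma called 0 of 9 and 1 was under an unadjusted 0.05, S100g at 1.52 ± 0.67 with adjusted p = 1, where 0.0251% of genes were called. Without the vehicle duodenum at 4.99 it was 0.94. The unmoderated two-sample test was not applied to the interactions.

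Slc40a1 and Atp2b1 had the most similar profiles among the members. Over the 22 intestinal libraries, after the mean of each region was subtracted, their Pearson correlation was 0.86, a description in which libraries share their groups and the ileal difference after SBR. Of the 14924 genes tested in both regions, the 3 most like Slc40a1 were Gm20706 (0.87), Atp2b1 (0.86) and Prkaa2 (0.85), and those most like Atp2b1 were Slc13a1 (0.90), Pparg (0.88) and Slc40a1. Cybrd1 was most like Txndc5 (0.88), Pdxdc1 and Pkp1, Slc11a2 most like Nfkbil1 (0.83), Tnrc18 and Mbd6, and Heph most like Tubal3 (0.94), Pdcd6 and Sec23a. Tfrc was most like Psmd14 (0.80), Spcs3 and Gm22232, Fth1 most like Adipor2 (0.80), Dhrs4 and Cyp4f15, S100g most like Oit1 (0.76), Nr1h4 and Sdcbp2, and Vdr most like Cmtm4 (0.82) and Fam187b.

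**Figure D4:**
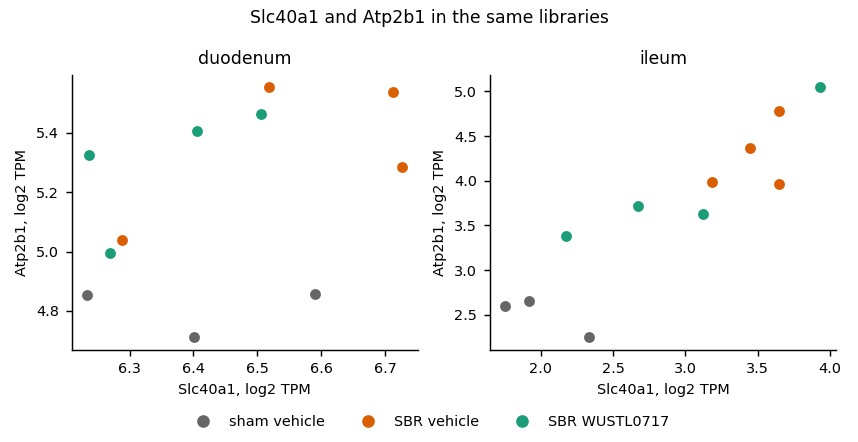
Atp2b1 against Slc40a1 in log2 TPM, 1 point per library, in the duodenum (left) and the ileum (right), colored by group. In the ileum the 3 sham libraries sit at the lower left (Slc40a1 1.76 to 2.33, Atp2b1 2.25 to 2.65), and the drug library highest for Slc40a1 (3.93) is also highest for Atp2b1 (5.05).

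Other genes of iron handling were counted from a list of 32, of which 29 were tested within each intestinal region. None was called in the duodenum in any comparison, where 7, 2 and 10 had an unadjusted p under 0.05 for SBR vehicle against sham, drug against vehicle and drug against sham, beside 16.1%, 5.31% and 16.9% of all genes. The medians of the list were 0.02, 0.18 and -0.13, beside 0.04 over all genes for drug against vehicle. The smallest p-values belonged to Hfe, a regulator of hepcidin (-1.29, adjusted p = 0.274), and the heme exporter Flvcr1 (1.07, adjusted p = 0.274) after SBR, and to lactoferrin Ltf (-1.18, adjusted p = 0.471) and heme oxygenase Hmox1 (1.87, adjusted p = 0.602) with the drug. Against sham, SBR WUSTL0717 duodena had the smallest p for Flvcr1 (1.5, adjusted p = 0.0817) and Ireb2, an iron regulatory protein (1.61, adjusted p = 0.108). In the ileum limma called 0, 0 and 1 of 29, beside 0.349%, 0.0697% and 2.17% of all genes, with 2, 1 and 8 under an unadjusted 0.05, beside 8.46%, 6.87% and 14.1%, and list medians of 0.02, 0.19 and 0.21. Fbxl5, which degrades an iron regulatory protein, stood next after Epas1 for SBR (-0.95, adjusted p = 0.372), and Slc39a8 (-0.95, adjusted p = 0.566) and Steap4 (1.34, adjusted p = 0.798) first for the drug. The gene called was Epas1, which encodes HIF-2α, the hypoxia-inducible factor known to drive iron absorption genes. Epas1 stood at 3.46, 4.03 and 5.17 in sham, at 5.78, 6.08, 5.31 and 5.79 in SBR vehicle and at 6.06, 6.80, 6.23 and 5.58 in SBR WUSTL0717 ilea, and every resected ileum lay above every sham ileum. Its differences from sham were 1.52 ± 0.41 (adjusted p = 0.192) and 1.95 ± 0.41 (adjusted p = 0.0326), and in the duodenum they were 0.71 ± 0.51 and 0.80 ± 0.51, with adjusted p of 0.471 and 0.428. Duodenal Epas1 stood at 6.14, 6.46 and 7.51 in sham and at 7.05 to 7.78 in SBR vehicle mice. With WUSTL0717 it stood at 6.88 to 8.53, so both groups overlapped sham and single libraries weigh on these differences.

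Of 9 HIF target genes tested, 2 were called in the duodenum of SBR WUSTL0717 against sham mice, where 0.802% of all genes were called, and none in the other comparisons of groups within the duodenum or the ileum. They were Bnip3, a mitophagy receptor, at 2.55 ± 0.40 (adjusted p = 0.0134), and Egln3, a HIF prolyl hydroxylase, at 2.13 ± 0.37 (adjusted p = 0.0191). Both differed about as much in SBR vehicle mice, by 2.01 ± 0.40 and 2.01 ± 0.37, with adjusted p of 0.131 and 0.107. Bnip3 stood at 0.68, 1.99 and 1.45 in sham duodena and at 3.19 to 4.46 in the 8 resected ones. Cybrd1 and Slc40a1, known targets of HIF-2α, differed from sham in those duodena by -1.19 and -0.05, neither called. In the ileum the smallest p belonged to Bnip3 (1.43, adjusted p = 0.451) and Egln3 (1.06, adjusted p = 0.595) after SBR and to Vegfa with the drug (1.49, adjusted p = 0.560). For Bnip3 the SBR vehicle ilea stood at 3.90, 2.78, 3.65 and 5.70, against 2.44, 2.42 and 2.85 in sham, so its size leaned on the library at 5.70. With the drug in the duodenum, Bnip3 (0.54) and Pdk1 (0.52) came first, both with adjusted p = 1. Between the regions, 1 HIF target was higher in the duodenum and 1 lower in sham, 1 and 2 in SBR vehicle and 2 and 1 in SBR WUSTL0717 mice, beside 14.6%, 56.9% and 55.9% of all genes called. Those lower were Ndrg1 in sham (-1.60, adjusted p = 0.0313) and SBR vehicle mice (-1.36, adjusted p = 0.0101), Pdk1 in SBR vehicle (-1.36, adjusted p = 0.0237) and Vegfa in SBR WUSTL0717 mice (-1.45, adjusted p = 0.0352). Ankrd37 was higher in SBR WUSTL0717 mice (0.73, adjusted p = 0.0338), and Car9, a carbonic anhydrase, in all groups, by 1.28 ± 0.25, 1.26 ± 0.22 and 1.54 ± 0.22, with adjusted p of at most 0.00122.

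Of the 26 further calcium and vitamin D genes, 15 were tested in the duodenum and none was called there, and 18 were tested in the ileum with 1 called after SBR with vehicle and with the drug against sham, beside 0.349% and 2.17% of all genes. In both it was Cldn2, a claudin that forms paracellular channels passed by cations, at 3.62, 3.62 and 4.09 in sham, 6.77, 6.78, 7.40 and 7.67 in SBR vehicle and 6.42, 7.98, 5.84 and 5.50 in SBR WUSTL0717 ilea. Its differences from sham were 3.38 ± 0.51 (adjusted p = 0.0151) and 2.66 ± 0.51 (adjusted p = 0.0230). Slc34a2, the phosphate transporter of the distal bowel, had a regional order opposite to that of S100g, at -0.75 to -0.49 in duodenal libraries, where it was under the filter, and 4.93 to 5.92 in ileal libraries, and a regional difference of -6.27 ± 0.23 in sham mice. In the ileum it differed by -0.55 ± 0.24 after SBR (adjusted p = 0.561). Cyp24a1, the enzyme that inactivates vitamin D, was not analysed here. In the duodenum the smallest p-values belonged to Slc30a10 (0.75, adjusted p = 0.297) and Rxrb, a partner of the vitamin D receptor (-1.39, adjusted p = 0.334), after SBR, and to the calcium channel gene Orai1 (-1.17, adjusted p = 0.818) and Cyp2r1 (0.60, adjusted p = 1) with the drug. Atp2a3 (-1.05, adjusted p = 0.263) and Orai1 (-1.19, adjusted p = 0.274) came first for SBR WUSTL0717 against sham duodena. In the ileum with the drug they were Slc30a10 (-0.74, adjusted p = 0.652) and Cyp2r1 (0.72, adjusted p = 0.817).

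The further lists were also split by region. Of 30 iron genes, 8 were higher and 6 lower in the duodenum of sham mice, 8 and 8 in SBR vehicle and 9 and 10 in SBR WUSTL0717 mice, against the shares of all genes called given above. Slc46a1, which carries heme and folate, lay with Cybrd1 and Slc11a2 on the duodenal side, by 3.98 ± 0.32, 4.79 ± 0.28 and 4.33 ± 0.28, as did Ncoa4, the receptor for ferritin breakdown, by 2.44 ± 0.25, 3.36 ± 0.22 and 3.10 ± 0.22. The mitochondrial iron importer Slc25a37 lay on the ileal side with Tfrc, at -2.69 ± 0.31, -2.96 ± 0.27 and -2.79 ± 0.27. Of 18 calcium genes, 2, 2 and 2 were higher in the duodenum and 4, 10 and 11 lower. Slc30a10, a manganese exporter, was higher by 2.92 ± 0.32, 2.31 ± 0.27 and 2.87 ± 0.27, and Trpm6, a magnesium channel, lower at -2.40 ± 0.27, -2.86 ± 0.23 and -3.12 ± 0.23.

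In the liver, Fth1 was higher after SBR. It stood at 10.05, 9.90, 10.13, 10.21 and 10.10 in sham vehicle livers, at 10.28 to 10.79 with a median of 10.57 in the 8 SBR vehicle livers, and at 10.66, 10.49, 10.11, 10.44 and 10.57 in SBR WUSTL0717 livers. No SBR vehicle liver lay within the sham range, and 1 of 5 drug livers did. The difference from sham was 0.45 ± 0.11 (adjusted p = 0.00349 in limma, exact permutation p = 0.000777, the smallest that 5 against 8 can give) with vehicle and 0.38 ± 0.12 (adjusted p = 0.0307, exact permutation p = 0.0238) with the drug, and the drug differed from vehicle by -0.07 ± 0.11. The median of all genes lay 0.25 and 0.27 higher than in sham in these comparisons, and after median centring Fth1 differed by 0.14 and 0.07, neither called. With vehicle, Fth1 kept its call without any single liver, at 0.40 to 0.48, which covers the 1 SBR vehicle liver whose exocrine pancreas list stood at 7.88, against 1.92 to 2.07 in the others. With the drug, leaving out any of 7 of the 10 livers ended the call against sham (adjusted p up to 0.0854). The list mean of 6 immune markers lay at 2.39 to 2.75 in sham, 2.98 to 3.53 in SBR vehicle and 2.89 to 3.52 in SBR WUSTL0717 livers, with 3 called higher in each resected group, where 41.9% and 28.8% of all genes were called. That of 6 crypt and cycling genes lay at 1.94 to 2.06, 2.56 to 3.34 and 2.11 to 3.01, with 4 and 3 called higher, and that of 6 hepatocyte markers at 7.46 to 7.78, 6.42 to 7.48 and 7.33 to 7.79, with 3 called lower with vehicle and 0 with the drug (limma, 1 under an unadjusted 0.05). The part of these lists in the liver values of Fth1 and the other iron genes was not tested.

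Tfrc in the liver stood at 3.86, 3.74, 4.13, 4.38 and 4.12 in sham vehicle, at 3.53 to 4.70 with a median of 4.46 in SBR vehicle and at 4.18, 4.16, 4.39, 4.43 and 4.11 in SBR WUSTL0717 livers. The groups overlapped throughout. The differences from sham were 0.25 ± 0.18 and 0.21 ± 0.20, with limma adjusted p of 0.280 and 0.409, and both turned negative under median centring (-0.06 and -0.09). Of the 2 members, 1 was called higher in SBR vehicle against sham, where 41.9% of 15901 genes were called, and 1 did not overlap, against 17.2%. With the drug against sham 1 was called, against 28.8%, and 0 did not overlap, against 28.1%. With the drug against vehicle limma called 0 of 2, 0 were under an unadjusted 0.05 and the two-sample test called 0, against 4.1%, and 0 did not overlap, against 1.54%.

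**Figure D5:**
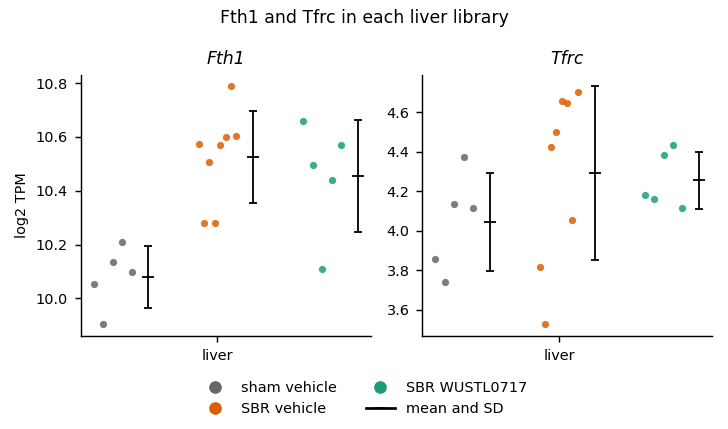
Log2 TPM of Fth1 (left) and Tfrc (right) in each liver library by group, with the mean and SD beside the points; the axes do not start at 0. The Fth1 sham points (9.90 to 10.21) lie under all SBR vehicle points (10.28 to 10.79), and the Tfrc points overlap between groups.

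Of the 30 further iron genes tested in the liver, 12 were higher and 1 lower after SBR with vehicle, and 10 were higher and none lower with the drug against sham. These counts stand beside the 41.9% and 28.8% of all genes called in the same comparisons. The ferritin light chain gene Ftl1 rose with Fth1, by 0.55 ± 0.10 (adjusted p = 0.000214) and 0.79 ± 0.11 (adjusted p = 0.000101). Hamp, which encodes hepcidin, the hormone that removes ferroportin from the cell surface, stood at 5.79 to 6.43 in sham, 5.74 to 7.32 in SBR vehicle and 6.68 to 7.26 in SBR WUSTL0717 livers. Hamp differed from sham by 0.44 ± 0.21 (adjusted p = 0.107) with vehicle and by 0.85 ± 0.24 (adjusted p = 0.0136) with the drug, and every drug liver lay above every sham liver. The other genes of smallest p were Lcn2 (3.17 ± 0.40 and 1.86 ± 0.44), which binds bacterial siderophores, the heme transporter Slc48a1 (1.12 ± 0.15 and 0.97 ± 0.17), Hmox1 (0.81 ± 0.16 and 0.96 ± 0.18) and Hjv (0.50 ± 0.12 and 0.69 ± 0.13), a BMP coreceptor that induces hepcidin, all called in both. Bmp6, which induces hepcidin, rose by 0.42 ± 0.12 (adjusted p = 0.0103) and 0.52 ± 0.14 (adjusted p = 0.00995), whereas Hamp2 differed by -0.09 ± 0.23 and 0.36 ± 0.25 without a call. Tfr2, a sensor of transferrin-bound iron, fell by 0.36 ± 0.11 after SBR with vehicle (adjusted p = 0.0133) and differed by -0.06 ± 0.12 with the drug. The liver shift of the median gene applies to these values too. None of the 30 was called between drug and vehicle in limma, where 6 had an unadjusted p under 0.05, Lcn2 (-1.30, adjusted p = 0.0758) and Slc25a37 (0.30, adjusted p = 0.117) first.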

How the data were processed

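RNA of whole duodenum, post-anastomotic ileum and liver was sequenced after depletion of ribosomal RNA. The authors aligned reads to GRCm38 (Ensembl) with STAR, counted uniquely aligned reads per gene with featureCounts (tools also named in the submitters' processing notes), scaled them to TPM, took log2 and corrected 2 batches with ComBat, intestine as 1 and liver as the other. The deposited values are therefore batch-corrected log2 TPM, of which 2752 lie below 0. The pseudocount is not given in the sources used here. No read totals come with them, so depth and its precision are unknown.

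Genes whose mean over the libraries of a fit reached 1 log2 TPM entered limma (version 3.58.1, run under R 4.3.3, variance trend, Benjamini-Hochberg adjustment over all genes, calls at adjusted p under 0.05), with the 3 groups of a tissue in 1 fit and the 22 intestinal libraries in another for regions and interactions. Both fits were tested on simulated data. Single genes were compared by exact two-sided permutation tests in Python 3.11.15. Labels do not tie libraries to mice, so p-values measure the spread between these libraries, and regions were compared as separate samples. Members and gene lists were chosen with earlier results of these data known. All members are named. Of each further list, those called (at most 5 by smallest p) or else the 2 of smallest p are named, beside Hamp, Hamp2, Slc40a1, Tfr2, Bmp6, Epas1, Cyp24a1 and Slc34a2 whatever their values. Ftl1 in the duodenum and the members other than Fth1 and Tfrc in the liver were named after their values were seen. Alternatives were other filters, pseudocounts of 0.1 and 5, median centring, an unmoderated two-sample test, library weights, a replicate block and leaving out each library. The pseudocount alternatives assumed an original pseudocount of 1, undid the log2 of batch-corrected values and clipped negative results. They therefore only approximate the data under another pseudocount. Sequences are from GENCODE M21 and RefSeq. One of the genes most similar to Vdr is not reported here.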

Additional observations from a re-analysis of the deposited data

Results flagged for a closer look

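Of 42 sets of 4 to 8 libraries checked for the members, 1 held a library far from the others, and chance flags about 1 in 20 such sets. It was Fth1 in the duodenum of SBR vehicle mice, where replicate 1 stood at 11.28 and the other 3 libraries at 10.81 to 10.85. Without that library the difference between SBR WUSTL0717 and SBR vehicle duodena was 0.90 log2 units, against 0.78 with it. No difference between the regional effects of a member passed the adjusted threshold in limma without library weights, with which 3 did for SBR. These included Cybrd1, which entered that fit through its duodenal level.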

How the results depend on the processing

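Of 1903 values recomputed under another setting, 1782 kept their direction and side of the threshold or, for counts of called members, stayed within 1.5 times, 74 from 27 of 119 results changed sign, 15 counts moved further, 13 values gained a call and 19 lost one; the largest log2 fold change that changed sign was 0.29 in size, and none of those 27 was called under the settings of the report. The cause was not tested. The number of called members became 1 for SBR WUSTL0717 against sham duodena, 3 for the difference in the SBR effect between regions, 2 for SBR vehicle and 1 for SBR WUSTL0717 against sham ilea with library weights, which called 7.45%, 12.5%, 1.77% and 4.84% of all genes there, and 1 and 1 in the same ileal comparisons and 0 and 0 in the livers of SBR vehicle and SBR WUSTL0717 against sham mice with centred libraries, which called 0.469%, 2.69%, 49.2% and 19.6% of all genes. Leaving out each library in turn gave 0 to 1 called members in SBR WUSTL0717 against sham livers. Between the regions the 7 called members in each group became 6 to 9 under other settings.

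With centred libraries, signs changed for Fth1 in SBR vehicle against sham duodena (0.18) and in the SBR effect between regions (0.30), Heph in drug against vehicle duodena (-0.021), between regions in SBR vehicle (0.83) and SBR WUSTL0717 mice (0.73) and in drug against sham ilea (-0.032), Slc11a2 (0.18) and Slc40a1 (0.31) in drug against sham duodena, Tfrc in the livers of SBR vehicle (-0.060) and SBR WUSTL0717 (-0.091) against sham mice, and Vdr in SBR vehicle against sham ilea (-0.075). With library weights they changed for Cybrd1 (0.16) and Heph (0.25) in the drug effect between regions, Heph in the 3 ileal comparisons (0.00096 for SBR vehicle against sham, -0.043 for drug against vehicle and -0.042 for drug against sham), Tfrc in drug against vehicle duodena (0.29), and Vdr in SBR vehicle against sham (-0.044) and drug against vehicle ilea (0.0066). A pseudocount of 0.1 gave 1.16 for Cybrd1 in the drug effect between regions. That value rests on ileal readings of -0.04 to 0.91, where this alternative is least reliable.

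With a replicate block the sign changed for Fth1 in SBR vehicle against sham ilea (0.0013), Fth1 (0.013) and Tfrc (0.070) in drug against vehicle livers and Vdr in SBR vehicle against sham ilea (-0.050), and Heph lost its regional call in sham mice (adjusted p = 0.0612), so that the block gave 6 called members there. Labels do not say whether equal numbers mark the same mouse. The correlation of same-numbered deviations exceeded 0.1 in 3 of 10 pairs in the duodenum, 1 of 10 in the ileum, 2 of 15 in the liver and 5 of 11 between the regions. Between the regions it ran from -0.14 to 0.45. Pairs with different numbers were not compared, so these values cannot show whether libraries were paired. The fits across regions treated the libraries as separate.

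Leaving out 1 library at a time, signs changed within these ranges: in drug against vehicle duodena Atp2b1 from -0.16 to 0.045, Heph from -0.10 to 0.11 and Tfrc from -0.34 to 0.24; in SBR vehicle against sham duodena Slc11a2 from -0.18 to 0.37; in drug against sham duodena Slc11a2 from -0.42 to 0.13 and Slc40a1 from -0.14 to 0.036; in SBR vehicle against sham ilea Fth1 from -0.19 to 0.062, Heph from -0.14 to 0.13, Tfrc from -0.11 to 0.56 and Vdr from -0.067 to 0.091; in drug against vehicle ilea Heph from -0.10 to 0.18, Slc11a2 from -0.10 to 0.14 and Vdr from -0.065 to 0.046; in drug against sham ilea Heph from -0.014 to 0.094 and Vdr from -0.079 to 0.079; in drug against vehicle livers Fth1 from -0.12 to 0.016 and Tfrc from -0.15 to 0.022; between regions Heph in SBR vehicle mice from -0.27 to 0.014; in the SBR effect between regions Slc11a2 from -0.026 to 0.52 and Vdr from -0.025 to 0.13; and in the drug effect between regions Cybrd1 from -0.22 to 0.16 and Heph from -0.17 to 0.12.

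Depth is unknown without counts, so low values, such as those of Cybrd1 and S100g in the ileum, are uncertain. The floor of a gene can move with batch correction, so a value above 1 can also be low. An example is the repeated lowest value of Cybrd1 in the liver, 1.75. Batch correction by tissue bars comparison of levels between genes or between liver and intestine. With 3 sham libraries per region, a missed call does not show that groups were alike.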

Other observations

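Members other than Fth1 and Tfrc were also read in the liver. Heph, at 3.20 to 3.49 in sham, 3.72 to 4.46 in SBR vehicle and 3.73 to 3.98 in SBR WUSTL0717 livers, was higher than in sham by 0.82 ± 0.11 with vehicle (limma adjusted p = 1.28e-05) and by 0.47 ± 0.13 with the drug (adjusted p = 0.0110), with no overlap in either case. Of all genes, 17.2% and 28.1% did not overlap there. Between drug and vehicle Heph differed by -0.35 ± 0.11 (limma adjusted p = 0.0935). Slc11a2 was higher than in sham by 0.62 ± 0.16 with vehicle (adjusted p = 0.00361) and differed by 0.46 ± 0.17 with the drug (adjusted p = 0.0544). S100g was higher by 0.88 ± 0.21 with vehicle (adjusted p = 0.00232) and differed by 0.57 ± 0.23 with the drug (adjusted p = 0.0691). Atp2b1 differed by 0.30 ± 0.13 and 0.29 ± 0.14, Vdr by 0.05 ± 0.07 and -0.0015 ± 0.075, and Cybrd1 by 0.03 ± 0.08 and -0.0081 ± 0.087, none of them called. The lowest liver value of Cybrd1, 1.75, recurred in all groups. That of Vdr, 3.60, recurred in a sham and a drug liver. Both genes may thus lie near a floor in the liver, and their small differences do not show stable expression. Slc40a1 in the liver differed by -0.04 ± 0.15 and 0.23 ± 0.17 without a call. In the comparisons with sham 41.9% and 28.8% of all genes were called, and the median of all genes lay at 0.25 and 0.27.

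The HIF target and calcium lists were read in the liver as well. After SBR with vehicle, Ndrg1 (1.17 ± 0.20, adjusted p = 0.000102) and the glucose transporter Slc2a1 (0.48 ± 0.16, adjusted p = 0.0211) were higher than in sham and Pdk1 (-0.56 ± 0.16, adjusted p = 0.00840) and Bnip3 (-0.39 ± 0.15, adjusted p = 0.0417) lower, which were the 4 called of 9, where 41.9% of all genes were called. With the drug, Ndrg1 was called against sham (0.74 ± 0.22, adjusted p = 0.0177). Of 18 calcium genes, 5 were higher and 1 lower after SBR with vehicle, against the same 41.9%. Slc34a2 was first among them (1.20 ± 0.20, adjusted p = 8.78e-05), and it was lower with the drug than with vehicle (-0.85 ± 0.20, adjusted p = 0.0217), where the vitamin D hydroxylase gene Cyp27a1 was higher (0.45 ± 0.12, adjusted p = 0.0352). Cldn2, called in the resected ileum, was also higher in the liver, by 0.64 ± 0.15 with vehicle and 0.68 ± 0.17 with the drug against sham.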
